A study of Drosophila melanogaster with 2 samples.

Results

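Peaks just downstream of a transcription start site (TSS) were examined in chromatin immunoprecipitation followed by sequencing (ChIP-seq) on whole Drosophila melanogaster prepupae. The animals, aged 1 day, came from a transgenic strain that expressed CG11294 fused to eGFP, and 2 biological replicates formed the only group. Per the description the immunoprecipitation used an anti-GFP antibody, while the antibody label named CG11294. No control, input, untagged strain or other stage was analysed here, so binding of the tagged protein and recovery independent of it cannot be told apart, and no conditions were compared. The labels do not say which promoter drove the fusion or how many animals were pooled.

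The members were the peaks of the conservative thresholded list, which rests on rank agreement between the replicates, whose summit lay 0 to 500 bp downstream of the nearest annotated TSS in the direction of transcription. They numbered 214 of the 3260 peaks on the main chromosome arms, and lay nearest to 206 genes, 8 of which held more than 1. They are set against the 954 summits 1 to 500 bp upstream of their nearest TSS in the same list (upstream promoter peaks). They are also set against 7669 background downstream peaks, which came from the relaxed, ranked list behind the thresholded one, met the same distance rule and overlapped no thresholded series peak. Within the thresholded list the rule used position only, but the list itself was selected on signal rank and replicate agreement, and the background peaks are those it left out. The gene element at a summit also depends on its distance from the TSS, so element shares are set only against background peaks under the same distance rule. Distances still differed within that rule, with a median of 136.5 bp in members and 248 bp in background peaks. Element shares were not stratified by distance, and the part of distance in their differences was not tested. Peaks near each other can share sequence and genes, and p-values measure spread over peaks, not between animals.

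CG11294 is a homeodomain protein, and homeodomain proteins commonly recognise DNA with a TAAT core. In flies the stretch just after a TSS holds the start of the transcribed gene, where RNA polymerase II often pauses and where downstream core promoter elements lie. Many fly genes use several TSSs, and many neighbouring genes are transcribed away from a shared promoter region, so a site downstream of one TSS can at the same time be upstream of another.

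The sequences at the strongest members are shown first, since most of these peaks carry the pattern described below, of lying upstream of another TSS as well. The exceptions are ph-p, Ptp4E and lncRNA:CR46102. The stretches shown come from the 8 members of highest signal that were found in both replicates and could be printed. After these come the next 2 with no other TSS within 500 bp downstream of the summit, a choice made after the values were seen. Each is centred on the summit and written in the direction of transcription of the nearest gene, from the RefSeq Release 6 genome (dm6 coordinates). Capitals mark TAAT or CACTG on either strand. Windows are 30 bases where an untranslated region is annotated within 50 bp of the summit, and 100 bases otherwise.
Chro, chr3L:22878872-22878901, minus strand: aaagctatcgacaggcaatacactcccagt
mRpL23, chr3L:2373578-2373607, minus strand: atagttacagcgTAATaacttaaATTAATa
tank, chr2L:4837849-4837878, minus strand: ttcgatcagcaagCACTGgcacagcgataa
Elp5, chr3L:2257491-2257520, plus strand: gcattTAATatacgttcacatgatgataga
Mnat9, chr3R:31616143-31616172, minus strand: ttcatttcaaaaatATTAccttatttgcag
CG8360, chr2L:8212997-8213026, plus strand: agttgacaaattcttttttttatttaggta
lncRNA:CR44149, chr2L:9568673-9568772, minus strand: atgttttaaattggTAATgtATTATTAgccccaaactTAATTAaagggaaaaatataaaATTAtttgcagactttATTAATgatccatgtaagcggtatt
ph-p, chrX:2137863-2137892, minus strand: cgtaacattgtttatatgtataaaaagttt
Ptp4E, chrX:4939937-4940036, plus strand: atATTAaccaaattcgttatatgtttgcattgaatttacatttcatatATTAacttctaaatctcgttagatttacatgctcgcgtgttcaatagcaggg
lncRNA:CR46102, chr3R:25738141-25738240, plus strand: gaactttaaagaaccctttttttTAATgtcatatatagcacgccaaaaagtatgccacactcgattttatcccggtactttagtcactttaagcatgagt
Of these 10 stretches, which differ in length, 6 hold TAAT on either strand, 1 holds CACTG and 3 hold neither, so the stretches shown did not all share 1 of these words. The short windows cannot show words further out, which are counted over 200 bp below. Over 200 bp, TAAT occurred at 17 of the 20 strongest members found in both replicates and at 92.3% of the main list.

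The strongest downstream peaks mostly lay upstream of another TSS as well. Of the 20 members of highest signal found in both replicates, 15 were also within 500 bp upstream of a further annotated TSS, and 10 of these sat 50 to 150 bp upstream of it. The signal is the authors' enrichment statistic, whose scale was not given, and it is used only to describe and rank peaks within a list. Among the 20 it ran between 369 and 1049, against a median of 110.1 for the whole list. Values given for a replicate come from its own ranked list, and since each list was scored separately, levels are not compared between them. Each is the highest value among the replicate's peaks that overlap the member.

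Several of these peaks lay between alternative TSSs of a single gene. At Chro, which encodes a chromosomal protein of interbands and the spindle matrix, the peak at chr3L:22878750-22879036 had a signal of 868, with 559.9 in replicate 1 and 303 in replicate 2. Its summit was 97 bp downstream of 1 Chro TSS and 119 bp upstream of another. The peak of mRpL23, a mitochondrial ribosomal protein gene (chr3L:2373461-2373744), had 838, with 502 in replicate 1 and 334 in replicate 2. It lay 85 bp downstream of 1 mRpL23 TSS, in an intron, and 92 bp upstream of the next. Mnat9, an N-acetyltransferase gene (chr3R:31616045-31616299, signal 647, with 377 in replicate 1 and 274 in replicate 2), had its summit only 2 bp into the gene and 138 bp before its alternative TSS. The same arrangement held at GstE13, a glutathione S-transferase gene (signal 732, 85 bp downstream and 114 bp upstream), at CG8360 (645, 53 bp and 105 bp) and at CG9399 (446, 64 bp and 161 bp). All of these had peaks in both replicates' thresholded lists, which was a condition for being among the 20.

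Others lay at divergent gene pairs, downstream of 1 gene's TSS and upstream of its neighbour's. The strongest downstream peak of the list (chr2R:23850265-23850554, signal 1049, with 624 in replicate 1 and 422 in replicate 2) was 80 bp into the antisense RNA gene asRNA:CR45928. The same summit was 109 bp upstream of eIF6, a gene for a factor in large ribosomal subunit assembly. At CG8320 (signal 879.9, with 585 in replicate 1 and 325 in replicate 2) the summit was 95 bp downstream, in an intron, and 128 bp upstream of Pex11ab, a peroxisome gene. Elp5, an Elongator subunit gene, had a summit 50 bp downstream (signal 738, with 393 in replicate 1 and 342 in replicate 2), which was 83 bp upstream of CG1275. Trmt6, a tRNA methyltransferase subunit gene (signal 491), had its summit 97 bp downstream and 133 bp upstream of Ent2, a nucleoside transporter gene. At lncRNA:CR44149 (569) the further TSS was that of brwl, 167 bp away, and at CG11309 (487) that of CG7632, 110 bp away. The remaining peaks with a further TSS among the 20 had it farther off, at 483 bp for tank (signal 759), 409 bp for CG18622, at its own alternative TSS (449), and 299 bp for Vti1b, a SNARE gene (444).

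The 5 of the 20 without a further TSS were ph-p, Ptp4E, lncRNA:CR46102, CG6287 and SCOT. The peak in ph-p, which encodes the Polycomb group protein polyhomeotic (chrX:2137723-2138044), had a signal of 559, with 362 in replicate 1 and 195 in replicate 2. It lay 493 bp downstream, in the 5′ UTR. Ptp4E, a receptor tyrosine phosphatase gene, had an intronic summit 406 bp downstream (signal 464, with 214 in replicate 1 and 255 in replicate 2). SCOT, a gene of ketone body use, had one 19 bp downstream (369, with 148 in replicate 1 and 215 in replicate 2). The noncoding lncRNA:CR46102 (386, 164 bp) and CG6287 (382, 380 bp) completed the set. The 10 strongest of the 20 each had a further TSS, and ph-p followed them.

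Over all members, 84 of 214 were also 1 to 500 bp upstream of another annotated TSS (39.3%, 95% Wilson interval 33.0% to 45.9%), against 836 of 7669 background downstream peaks (10.9%, 10.2% to 11.6%). The difference passed a two-sided Fisher's exact test (odds ratio 5.28, p = 5.24e-25, adjusted by Benjamini-Hochberg over 9 tests of single shares). Intervals cover counting error only. The further TSS belonged to a divergent neighbour for 39 members, to the same gene for 42 and to another gene on the same strand for 3. In the background it was divergent for 546 peaks, of the same gene for 213 and of another gene on the same strand for 77. It belonged to a protein-coding gene for all 84 members and for 708 of the 836 background peaks. Replicate 1's own list gave 100 of 189 downstream peaks with a further TSS (52.9%), and replicate 2's 88 of 256 (34.4%).

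**Figure D1:**
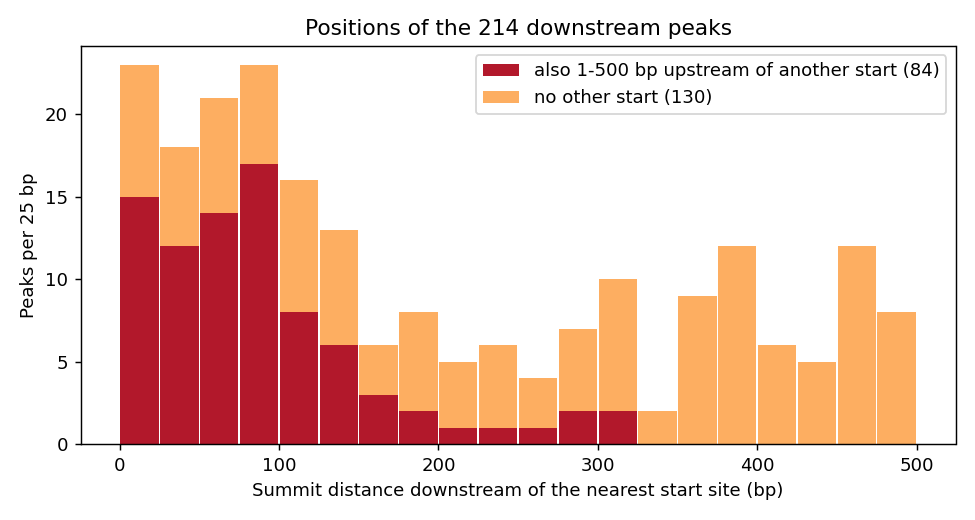
Number of downstream peaks per 25 bp (y axis) by summit distance from the nearest TSS in bp (x axis), with dark bars for the 84 peaks that are also upstream of another TSS and light bars for the other 130. Dark bars make up most of the first 100 bp, where 58 of 85 peaks have another TSS, and there are none past 400 bp. The other TSS had to lie within 500 bp and no nearer than the nearest one, which leaves less room for it at larger distances.

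Members were most frequent close to the TSS, and the closest ones most often had the further TSS. A further TSS had to lie within 500 bp and could not be nearer to the summit than the nearest TSS. The room for one therefore shrank with distance by construction, in members and background alike, so the decline with distance is not read as a result. The first 100 bp held 85 of the 214 members (39.7%), against 22.4% of background downstream peaks. The following stretches of 100 bp held 43, 22, 34 and 30 members. Within the first 100 bp, 58 of 85 members had a further TSS (68.2%), against 21.1% of background peaks there (adjusted p = 9.97e-19 by Fisher's exact test). Past 100 bp it was 26 of 129 (20.2%) against 7.97% (adjusted p = 3.57e-05 by Fisher's exact test). These comparisons, those of members with and without a further TSS, and those within windows under 40% GC were chosen after the values were seen and adjusted over 11 tests. At the edges of the distance range, Cbp20, Mnat9 and Ptpmeg2 lay 1, 2 and 2 bp downstream with signals of 95.96, 647 and 154. The nearest summits on the other side of a TSS, at CG17260, CG32772 and CG18278, lay 1, 1 and 4 bp upstream with signals of 192, 186 and 64.12. At the far edge, Mtp, CG3408 and ph-p lay at 487, 489 and 493 bp with 90.40, 70.76 and 559. Just past it, mats, lncRNA:CR44619 and wun lay at 501, 504 and 505 bp with 76.59, 594 and 34.72.

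Measured from the further TSS, the 84 members had a median position of -150.5 bp, and 40 of them (47.6%) lay 50 to 150 bp upstream of it. Upstream promoter peaks had a median of -158 bp from their own nearest TSS, with 375 of 954 (39.3%) in that band. The 836 background peaks had a median of -335.5 bp from their further TSS, with 101 (12.1%) in the band. The band was known from earlier results of these data, so these shares are given as a description and were not tested. The further TSS is by construction more distant than the nearest, which limits small distances in every set but the upstream promoter peaks.

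**Figure D2:**
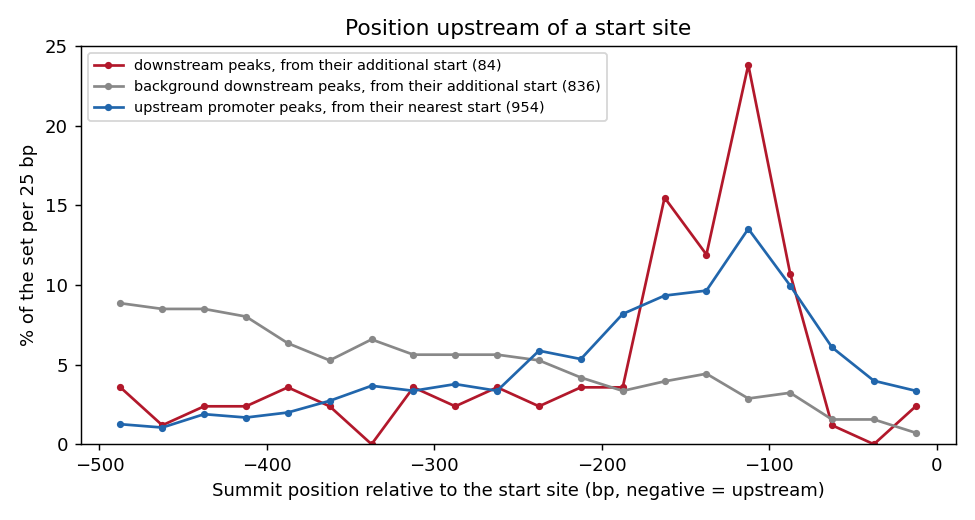
Share of each set per 25 bp (y axis, %) by summit position upstream of a TSS in bp (x axis), for the 84 members and 836 background downstream peaks measured from their additional TSS, and for the 954 upstream promoter peaks measured from their nearest TSS. The members and the upstream promoter peaks are both most frequent between -125 and -100 bp, while the background peaks are spread toward -500 bp.

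Members with a further TSS were stronger than members without. Their median signal was 155.3 (range 2.98 to 1049), against 93.6 (2.75 to 559) in the 130 members without, so the ranges overlapped widely. Signals above the list median were held by 52 of 84 (61.9%) against 56 of 130 (43.1%), a difference that passed (odds ratio 2.15, adjusted p = 0.0126 by Fisher's exact test). In replicate 1's own ranked list the medians were 92.3 with and 51.4 without, and in replicate 2's they were 52.8 and 47.4. Both replicates' thresholded lists held 52 of the 84 (61.9%) and 62 of the 130 (47.7%), which did not pass (adjusted p = 0.0684 by Fisher's exact test). The nearest gene was protein-coding for 79 of 84 (94.0%) against 96 of 130 (73.8%; adjusted p = 2.12e-04 by Fisher's exact test). For 42 of the 84 the further TSS was of the same gene, and every further TSS was of a protein-coding gene. The nearest gene of those 42 was therefore protein-coding too, so this call partly follows from the grouping. The share of windows under 40% GC was 57.1% and 53.8% (adjusted p = 0.687 by Fisher's exact test).

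As a set, downstream peaks were somewhat weaker than upstream promoter peaks. Their median signal was 110.6 against 130.2, and 108 of 214 (50.5%) exceeded the list median, against 565 of 954 (59.2%; odds ratio 0.701, adjusted p = 0.0389 by Fisher's exact test). The call was lost when peaks with another summit within 400 bp were left out (difference -4.98 percentage points, adjusted p = 0.351 by Fisher's exact test). It was also lost in replicate 1's own list (-3.34 points) and among peaks found in both replicates (-4.41 points). With a range of 0 to 300 bp the difference was -10.3 points and did not pass (adjusted p = 0.0528 by Fisher's exact test). By Fisher's exact test the call was kept in replicate 2's own list (-15.8 points, adjusted p = 2.46e-05) and the pooled list (-14.8 points, adjusted p = 3.22e-06). By the same exact test it was kept with 0 to 1000 bp (-6.67 points, adjusted p = 0.0285) and protein-coding TSSs only (-12.1 points, adjusted p = 0.00674). Without members that had a further TSS, but with such upstream peaks kept, the difference was -16.1 points (adjusted p = 0.00113 by Fisher's exact test). Another main-list summit lay within 400 bp of 36 members (16.8%), against 85 upstream promoter peaks (8.91%; odds ratio 2.07, adjusted p = 0.00257 by Fisher's exact test). Those 36 had a median signal of 19.5, against 128.5 for the other 178, and included all 12 members with a signal under 10. In the replicates' own lists this difference did not pass, at -1.38 points in replicate 1 and 1.54 points in replicate 2 (adjusted p = 0.808 and 0.423 by Fisher's exact test).

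Recovery in both replicates was close to that of the whole list. Of the 214 members, 114 overlapped a thresholded peak in both replicates (53.3%), where 54.8% of all main-list peaks did. A further 41 overlapped one in replicate 1 only, 25 in replicate 2 only and 34 in neither (15.9%). Of the upstream promoter peaks 76 of 954 were in neither (7.97%), a lower share that was not tested. Upstream promoter peaks were found in both at 571 of 954 (59.9%), a difference of -6.58 points that did not pass (adjusted p = 0.117 by Fisher's exact test). This call depended on the setting. Within a replicate's own list, presence in both counted only overlap with the other replicate's list, since every peak overlaps itself. By Fisher's exact test the lower share of downstream peaks passed in replicate 2's own list (-25.4 points, adjusted p = 1.50e-12), in the pooled list (-11.3 points, adjusted p = 3.54e-04) and with the other settings given in the closing section, and in replicate 1's own list the difference was 2.57 points (adjusted p = 0.792). The 2 replicates' signals had a Spearman rho of 0.592 across the 208 members ranked in each, against 0.667 over 933 upstream promoter peaks. These values run across peaks that share 2 libraries and are descriptions only. Members close to each other can overlap the same replicate peak and then share its value and its presence. The distance rule took 189 of 3217 thresholded peaks in replicate 1 (5.88%) and 256 of 2708 in replicate 2 (9.45%), against 6.56% of the main list.

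**Figure D3:**
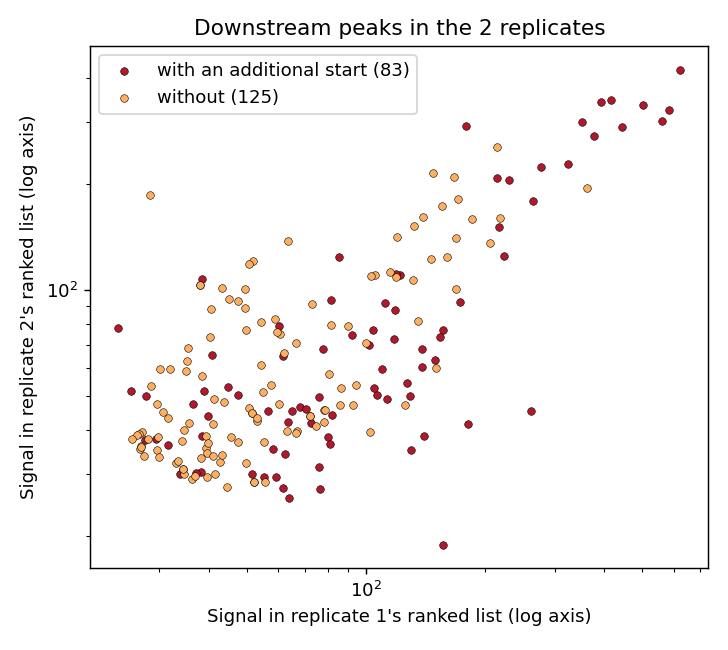
Signal of each member in replicate 2's ranked list (y axis, log scale) against replicate 1's (x axis, log scale), with dark points for the 83 members with an additional TSS and light points for 125 without; 6 members with no ranked peak in replicate 1 are not drawn. Most points at the upper right are dark, and at lower signals both kinds are mixed.

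Downstream peaks lay in 5′ UTRs and introns and hardly in coding exons. Coding exons of the nearest gene held 4 of 214 summits (1.87%), against 3239 of 7669 background downstream peaks (42.2%; odds ratio 0.0261, Fisher's exact p = 1.34e-42, adjusted over 6 elements). The 5′ UTR held 108 (50.5% against 27.9%, adjusted p = 2.68e-11 by Fisher's exact test), and introns held 67 (31.3% against 13.3%, adjusted p = 4.65e-11 by Fisher's exact test). Noncoding exons held 25 (11.7% against 13.6%) and 10 summits lay past the end of a short gene (4.67% against 2.67%), neither of which passed (adjusted p = 0.574 and 0.128 by Fisher's exact test). The 4 coding summits, all but 1 without a further TSS, were those nearest to CG44812 (signal 111), pre-mod(mdg4)-V (73.93), Asciz, a zinc finger protein gene (57.70), and CG5644 (5.999). None of the 4 was in both replicates' thresholded lists. Members lay closer to the TSS than background peaks did, and the element tests were not stratified by distance.

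Base composition moved with these shares. Within windows under 40% GC, coding exons held 0 of 118 members, which allows a share of up to 2.54% when the limit is set at 3 counts of the total, against 81 of 873 background peaks (9.28%; adjusted p = 9.08e-05 by Fisher's exact test). In the same windows the 5′ UTR shares were 39.8% and 37.8% and the intron shares 36.4% and 29.2%, and neither passed (adjusted p = 0.687 and 0.134 by Fisher's exact test). The further TSS still differed there, at 40.7% against 17.5% (adjusted p = 2.41e-07 by Fisher's exact test). Among peaks without a further TSS, coding exons held 3 of 130 members (2.31%), against 43.9% of background peaks (adjusted p = 1.26e-26 by Fisher's exact test). The 5′ UTR difference from all background peaks shrank to 6.74 points without the members that had a further TSS (adjusted p = 0.141 by Fisher's exact test).

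**Figure D4:**
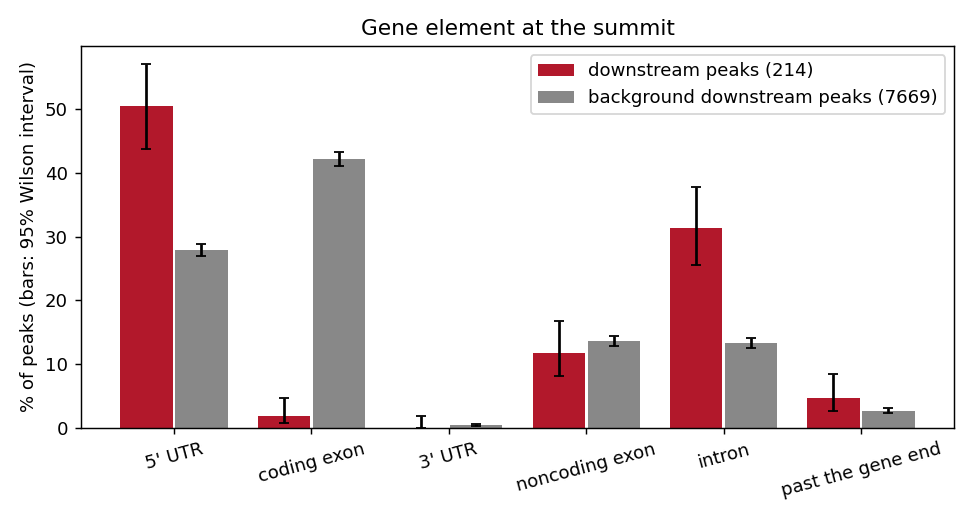
Share of summits (y axis, %, error bars 95% Wilson intervals) in each element of the nearest gene (x axis) for the 214 members and the 7669 background downstream peaks. Coding exons hold 1.87% of members and 42.2% of background peaks, while 5′ UTRs and introns hold more of the members.

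Within the gene, the elements differed in how far in they lay and how often they had a further TSS. The 108 summits in 5′ UTRs were a median of 82.5 bp downstream, with a median signal of 101.8, and 63 of them had a further TSS. Intronic summits were a median of 311 bp downstream (median signal 110.2, highest 879.9), and 15 of 67 had one. Besides those named above, intronic members included rudhira, a gene for a microtubule-associated protein (signal 352, 278 bp), scramb2, a scramblase gene (316, 372 bp), and egh, a glycosphingolipid synthesis gene (286, 363 bp). Noncoding exons had a median signal of 140.7 over 25 summits, 18 of which were in both replicates. The 10 summits past a gene end included lncRNA:CR44676 (signal 335), lncRNA:CR45997 (308) and FBtr0445485_df_nrg (263), and 8 of the 10 were in both replicates.

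Noncoding genes were nearest to 39 members. The nearest gene was protein-coding for 175 of 214 members (81.8%), against 882 of 954 upstream promoter peaks (92.5%; odds ratio 0.366, adjusted p = 2.36e-05 by Fisher's exact test). Background downstream peaks stood at 83.2%, from which members did not differ detectably (adjusted p = 0.579 by Fisher's exact test). With a range of 0 to 300 bp the difference from upstream promoter peaks shrank to -5.29 points and did not pass (adjusted p = 0.0640 by Fisher's exact test). Long noncoding RNA genes made up 30 of the 39 and antisense RNA genes 4. The strongest of the former were lncRNA:CR44149 and lncRNA:CR46102, given above, followed by lncRNA:CR44091 (signal 361, with 57 bp to the TSS). The others were FBtr0445485_df_nrg, the pseudogene CR42875 (signal 105, 25 bp), snoRNA:Or-CD13 (66.75, 469 bp), tRNA:Lys-TTT-1-1 (128, 286 bp) and snRNA:7SKa (77.18, 252 bp). The last encodes a 7SK RNA that restrains the elongation factor P-TEFb. By contrast, the share on X (17.8% against 17.4% upstream), the share at the outermost TSS of a gene (66.8% against 71.3%) and the share at genes of 10 kb or more (24.3% against 29.98%) did not pass (adjusted p = 0.921, 0.240 and 0.145 by Fisher's exact test). The lower share at long genes did pass by Fisher's exact test in replicate 1's own list (-13.2 points, adjusted p = 1.48e-04), in replicate 2's (-7.48 points, adjusted p = 0.0407) and among peaks found in both replicates (-13.3 points, adjusted p = 0.00980). The lower share at the outermost TSS passed by the same exact test without the members that had a further TSS (-14.4 points, adjusted p = 0.00169) and with protein-coding TSSs only (-10.5 points, adjusted p = 0.0121). In the first of these settings the upstream promoter peaks with a further TSS were kept. Leaving out members upstream of a later TSS of their own gene can lower the share by itself, so that call cannot show a deficit.

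Downstream peaks were less AT-rich than upstream promoter peaks and more so than the background. Their 200 bp windows had a mean GC content of 39.3% ± 8.20 (SD, n = 214 peaks), against 34.9% ± 7.22 upstream (n = 954) and 49.5% ± 7.77 in the background (n = 7669). Windows under 40% GC made up 118 of 214 (55.1%), against 78.9% upstream (adjusted p = 2.39e-11 by Fisher's exact test) and 11.4% in the background (adjusted p = 9.27e-52, Fisher's exact test). The replicates' own lists differed in composition, with means of 35.9% GC for downstream and 32.7% for upstream peaks in replicate 1, and 42.9% and 37.9% in replicate 2.

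**Figure D5:**
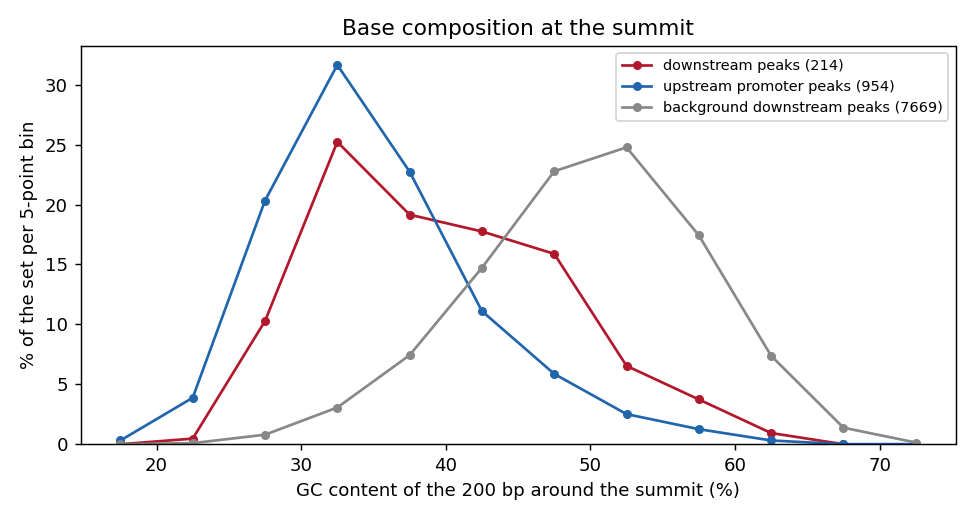
Share of each set (y axis, % per bin of 5 percentage points) by GC content of the 200 bp around the summit (x axis, %). The members (mean 39.3%) lie between the upstream promoter peaks (34.9%) and the background downstream peaks (49.5%).

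The homeodomain core TAAT was less frequent at downstream peaks than at upstream ones, alongside their higher GC content. All words were searched on both strands in 200 bp around the summit. TAAT occurred at 184 of 214 members (86.0%), against 93.7% of upstream promoter peaks (Fisher's exact p = 0.00599, adjusted over 18 words) and 92.3% of the main list. The longer core TAATTA stood at 15.9% against 18.6% upstream (adjusted p = 0.591 by Fisher's exact test). The TATA box word TATAAA occurred at 59 members (27.6%), against 38.7% upstream (adjusted p = 0.0197 by Fisher's exact test). None of the 18 words passed between these sets when windows were stratified by GC in bins of 5 percentage points (Cochran-Mantel-Haenszel test), with stratified odds ratios of 0.895 for TAAT and 0.905 for TATAAA. Among them were the initiator word TCAGT (34.6% against 35.2%), the GAGA repeat word GAGAG (25.2% against 25.3%), the DNA replication-related element core ATCGAT (5.61% against 9.33%) and the Motif 1 core GTCACAC (3.27% against 3.04%). None of these 4 passed without stratification either (adjusted p = 1, 1, 0.308 and 1 by Fisher's exact test).

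Against background downstream peaks, 10 of the 18 words differed, and after stratification by GC 5 did. Of those 5, 4 had been picked from earlier results of these data, so they are not independent evidence, and the fifth, the E-box CAGCTG, had not passed before stratification. CACTG occurred at 100 members (46.7%), against 38.8%, with a stratified odds ratio of 1.70. The others were ACAGTG (17.3% against 8.80%, stratified odds ratio 2.07), AGTGTA (16.8% against 5.67%, 1.71), GTGCAC (11.2% against 5.18%, 2.45) and CAGCTG (12.6% against 12.2%, 1.78). The words TAAT (86.0% against 63.9%), TAATTA (15.9% against 5.32%) and TATAAA (27.6% against 10.8%) passed only without stratification, with stratified odds ratios of 1.09, 1.42 and 1.23. CACTG stood at 47.0% of upstream promoter peaks and 52.6% of the main list, so its share at downstream peaks was near that of upstream ones (adjusted p = 1 by Fisher's exact test).

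A scan of all 2080 words of 6 bases called 13 between downstream and upstream promoter peaks (0.625% of words, Fisher's exact adjusted p under 0.05), 6 higher and 7 lower. The 6 higher words were ACGGCG (8.41% against 1.89%), CCGTGA (7.48% against 2.10%), GGCGCA (13.6% against 4.30%), AACGGC (10.7% against 3.56%), CACACG (13.1% against 5.35%) and ACACTC (14.5% against 6.18%). Of the 7 lower words 6 consisted of A and T alone, led by ATAAAT (29.9% against 47.1%). No word was called among the peaks in the upper part of the list by signal or among those found in both replicates. Against background downstream peaks 288 words were higher (13.8%) and 337 lower (16.2%), and 36 of the 288 were made of A and T alone. Overlapping words are not independent. The scan was not stratified by GC content, in which members differed from both comparison sets. Its calls therefore cannot be told apart from base composition.

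Few genes of the functional lists held a downstream peak, as few of all genes did, and the lists were not tested. Of all 18164 annotated genes, 206 (1.13%) were nearest to a member and 895 (4.93%) to an upstream promoter peak. Among 38 genes of chromatin and the transcription machinery 3 held a member, which were Chro, ph-p and Trl, and 7 were nearest to an upstream promoter peak. Trl encodes GAGA factor, and its peak (chr3L:14757089-14757316) had a signal of 346, with 206 in replicate 1 and 136 in replicate 2, at 116 bp in the 5′ UTR. The gene ph-p held another member at 112 bp (signal 107). Among 40 genes of the response to ecdysone, the steroid hormone that drives metamorphosis, Eip75B (signal 128, 33 bp) and Hr78 (98.32, 21 bp) held one. Both encode nuclear receptors, both summits lay in 5′ UTRs, and neither was in replicate 2's thresholded list.

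Housekeeping lists held from 0 to 2 members each. The ribosomal protein genes RpS4 (signal 76.80, 22 bp) and RpS21 (63.54, 16 bp) were 2 of 93, and each summit was also upstream of a further TSS of its gene, by 23 and 25 bp. Neither was in replicate 1's thresholded list. Of the mitochondrial ribosomal protein genes 1 of 73 held a member (mRpL23), of the proteasome subunit genes 1 of 48 (Rpn3, signal 106, 26 bp), and of the translation initiation genes 1 of 44 (eIF3h, 114, 305 bp). Transfer RNA genes held 1 of 295 and small nuclear and nucleolar RNA genes 2 of 316. The heat shock and chaperone (25 genes), respiratory chain (88), homeobox (79), EGF receptor and patterning signal (32), cuticle protein (125) and histone (115) lists held 0. By the same limit of 3 counts, these counts of 0 allow shares of up to 12%, 3.41%, 3.80%, 9.38%, 2.4% and 2.61% in these 6 lists, in that order. Each limit is above the 1.13% of all genes that were nearest to a member, so none of these counts can show a deficit. By comparison, 6 of the 25 heat shock and chaperone genes were nearest to an upstream promoter peak. No main-list summit was nearest to CG11294 itself.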

How the data were processed

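The members, lists and tests were chosen with earlier results of these data known. ChIP-seq peak lists on build dm6, per the labels, were deposited for each replicate and for the series; the aligner, the peak caller and their versions are not given in the sources used here. The deposited signal per peak is the authors' enrichment statistic, of unknown scale, and read depth was unknown. The ranked series list used as background held both replicates' own peak positions (59.0% of rows for replicate 1 and 70.1% for replicate 2); its 8 further columns of values per input were not used otherwise. TSSs came from Ensembl release 115 without transposable elements, and sequence windows from the RefSeq Release 6 genome, within whose arms all peaks ended. Chromosome 4 held no member.

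Shares were compared with two-sided Fisher's exact tests (SciPy 1.17.1), Benjamini-Hochberg adjusted within each family at 0.05, and words also with Cochran-Mantel-Haenszel tests stratified by GC (statsmodels 0.14.6). The word scan was tested on simulated data. Alternatives were other peak lists, distance ranges, TSS sets, overlaps, windows and comparison sets.

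Named genes were the 20 members of highest signal found in both replicates, up to 5 per list, 3 per gene element, those at the ends of the distance range, and CG11294. The genes lncRNA:CR44091, CR42875, CG5644, rudhira, scramb2 and egh and the summits just upstream of a TSS were named after their values were seen. In the 14 lists 15 symbols were not matched. Some sequences are not reported here.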

Additional observations from a re-analysis of the deposited data

How the results depend on the processing

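Differences are in percentage points, downstream peaks minus their comparison set, which is upstream promoter peaks unless named. The further TSS, the share under 40% GC, the coding exon share and the intron share kept their direction and passed in every alternative of this section run for them. Within windows under 40% GC, described above, the intron share did not pass (36.4% against 29.2%, adjusted p = 0.134 by Fisher's exact test). Calls that the report's own setting did not give were gained by Fisher's exact test for presence in both replicates in replicate 2's list, the pooled list, the range of 0 to 1000 bp, protein-coding TSSs only, 50% overlap and without members that had a further TSS (adjusted p = 1.50e-12, 3.54e-04, 0.0285, 0.0121, 0.0401 and 0.0132). They were gained for long genes in both replicates' lists, the upper part by signal, without neighbouring summits and among peaks found in both (adjusted p = 1.48e-04, 0.0407, 0.0237, 0.0135 and 0.00980 by Fisher's exact test), and for the outermost TSS with protein-coding TSSs only and without members that had a further TSS (0.0121 and 0.00169). Within a replicate's own list, presence in both is overlap with the other replicate's list alone. Where members with a further TSS were left out, the comparison sets kept such peaks, so the calls gained there rest on sets filtered unlike each other. The cause of the changes was not tested. No paired analysis was possible because the samples form 1 group.

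Using 1 replicate's own list, the 2 values ran from -15.8 to -3.34 for signal above the median, -25.4 to 2.57 for presence in both replicates, -1.38 to 1.54 for a neighbouring summit, -1.41 to 1.93 for the outermost TSS, -13.2 to -7.48 for long genes and -0.180 to 0.349 for X. The numbers of named words called were 2 and 4, of 6-base words 4 and 45, and of members 189 and 256. In the pooled list presence in both was -11.3, with 7 named words and 100 6-base words called over 337 members. In the upper part of the list by signal (108 members) no named or 6-base word was called, and the differences were 1.23 for a neighbouring summit, 3.20 for the outermost TSS, -12.5 for long genes, -1.74 for X and 0.315 for noncoding exons against background. With a range of 0 to 300 bp signal was -10.3 and protein-coding genes -5.29, neither of which passed, and 31 6-base words were called. With 0 to 1000 bp (424 members) presence in both was -6.70 and long genes 0.388, with 0 named and 2 6-base words called. With protein-coding TSSs only, presence in both was -10.7 and the outermost TSS -10.5, with 1 named and 24 6-base words called, and the protein-coding share has no value.

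Requiring 50% overlap gave -8.52 for presence in both, and 200 bp between summits gave 0.860 for a neighbouring summit. A 100 bp window called 1 named word. Stratified by GC, 0 were called. Against background, 10 named words and 625 6-base words were called, with TAAT at 22.0 and TATAAA at 16.7. Without peaks that had another summit within 400 bp, signal was -4.98, long genes -10.0 and X -0.983, with 1 6-base word called. Without members that had a further TSS, presence in both was -12.2, the outermost TSS -14.4, long genes 2.33, the 5′ UTR 6.74 and noncoding exons 1.81. Among peaks found in both replicates (114 members), an alternative chosen after seeing the data, signal was -4.41, long genes -13.3, X -1.19 and noncoding exons 2.22, with 0 named and 0 6-base words called.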
